A study of Mus musculus with 8 samples.

Results

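The 8 named subunits of RNA polymerase III analysed here, Polr3a, Polr3b, Polr3c, Polr3d, Polr3e, Polr3f, Polr3g and Polr3k, and the repressor Maf1 are 9 of the 54838 genes in a table of RNA-seq read counts. They were taken as the rows whose Ensembl identifier carries one of these symbols, and each symbol matched 1 row. The cells were mouse acute myeloid leukemia (AML) cells of C57BL/6 background that carried the RUNX1-RUNX1T1 fusion, transplanted into Ptprca recipient mice that the labels give as sub-lethally irradiated and sorted from bone marrow and spleen. The comparison asks how AG636, an inhibitor of the pyrimidine synthesis enzyme DHODH, changed their transcripts in the animal. The vehicle group held 4 samples and the AG636 group 4, the drug being dosed by oral gavage at 100 mg/kg, b.i.d., for a single day by the study's account. The fusion, the background and the transplantation were common to both groups. The labels do not say which sample came from marrow and which from spleen, whether the 8 samples are separate mice, or in which order they were handled, and the study's legend for these data names fewer mice per group than the 4 samples, so p-values measure the spread between these samples, which may be partly technical.

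RNA polymerase III transcribes short non-coding RNAs, among them transfer RNAs, the ribosomal 5S RNA, the spliceosomal U6 RNA and the RNA of the signal recognition particle. Its catalytic core is built by a pair of large subunits, to which a dimer related to the factor TFIIF, a trimer related to TFIIE, a stalk and a subunit that takes part in RNA cleavage and termination are bound. Maf1 binds the polymerase and represses it when nutrients or growth signals are short, and phosphorylation by mTORC1 holds Maf1 off the polymerase.

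The libraries were made with QuantSeq, which reads the 3′ ends of polyadenylated transcripts, so 1 count is 1 read near such an end. The study's methods name no removal of duplicate reads for these libraries. They held between 6120030 and 7162036 counts each. Levels are given as CPM, the counts of a gene relative to the size of its library, with library sizes scaled by TMM, a method that assumes most genes do not change between samples. A fold change is on the log2 scale as AG636 minus vehicle, from limma-voom, and a gene is called where its p adjusted by Benjamini-Hochberg over the 10911 genes tested is under 0.05. Over these genes 597 were called higher and 926 lower. Scaling by library size alone left 1489 calls, of which 571 were lower, with the median gene at 0.06 on the log2 scale. Levels of cell type markers were read as a description. The study sorted these cells on cKit, and its legend adds the absence of CD11b, the product of Itgam. High Kit and low Itgam therefore go with the sort and are no check of the AML label. Kit, the receptor of stem cell factor and a marker of the study's sort, stood at 153 to 252 CPM and Myb at 388 to 717 CPM in the 8 samples. Ptprc stood at only 2.01 to 9.25 CPM. Cd34 ran from 2.43 to 12.6 CPM in vehicle and from 4.05 to 35.6 CPM in AG636, with AG636 sample 3 the highest. Of the progenitor list Cd33 and Flt3, and of the mature myeloid list Itgam, Ly6g and Adgre1, were under 1 CPM in every sample. The summed mature myeloid list of 10 genes ran from 42.1 to 97.0 CPM in vehicle and from 17.7 to 185 CPM in AG636. Within it S100a8, a neutrophil gene, stood at 37.2, 40.1, 17.6 and 35.1 CPM in vehicle and at 6.84, 69.8, 5.90 and 76.0 CPM in AG636, with samples 2 and 4 of AG636 above all vehicle samples and samples 1 and 3 below them. S100a9, Camp and Ltf were also higher in samples 2 and 4 of AG636 than in samples 1 and 3. Other genes of the list went another way. Csf1r ran from 0.928 to 1.67 CPM in vehicle and from 1.76 to 4.63 CPM in AG636, without overlap, and was not called. Mmp8 ran from 0.146 to 1.08 CPM in vehicle and from 1.30 to 1.76 CPM in AG636, also without overlap, and was not tested. Klf1, the erythroid transcription factor, stood at 112 to 239 CPM. The summed erythroid list of 8 genes ran from 2331 to 6141 CPM in vehicle and from 4752 to 6235 CPM in AG636, with Hbb-bt alone called, and higher. The summed list of 6 B cell genes ran from 5.38 to 13.4 CPM in vehicle and from 10.7 to 22.5 CPM in AG636, where Cd79a alone was called, and higher. None of the 5 tested genes of the mature myeloid list, of the 4 of the stem and progenitor list and of the 1 of the T and NK cell list was called. The part of these levels in the results below was not tested.

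Polr3e stands next to a gene of the class its own polymerase transcribes, and the sequence is shown because this neighbour is not shared by the other 8 genes. Polr3e lies on the plus strand of chromosome 7 at 120917744 to 120947432 in the GRCm38 build. The leucine transfer RNA gene n-TLaag4 of RefSeq lies upstream of it at 120917517 to 120917598, 145 bases before this start and 179 bases before the RefSeq start of Polr3e. RefSeq lists 430 transfer RNA genes, and the nearest to any other of the 9 genes lies 210001 bases from Polr3c. The run below starts inside n-TLaag4 and ends at the base before Polr3e (RefSeq promoter table, GRCm38.p6, plus strand, chr7:120917528-120917743), and its first 71 bases belong to n-TLaag4. The capitals mark the B box, an internal promoter element of transfer RNA genes.
Polr3e upstream: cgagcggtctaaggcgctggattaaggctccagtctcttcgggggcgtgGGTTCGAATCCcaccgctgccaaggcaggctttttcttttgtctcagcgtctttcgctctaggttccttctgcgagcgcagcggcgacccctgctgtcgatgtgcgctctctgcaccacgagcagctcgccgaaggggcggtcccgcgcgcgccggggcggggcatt

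The letters searched for the B box were those in capitals with any base allowed as the fourth from their end. On either strand they occur in 15 of the 32851 promoters of the table, or 0.0457%. The match in the Polr3e window lies inside n-TLaag4, so it restates the presence of that gene. The table holds a promoter for 6 of the 9 genes, Polr3b, Polr3c, Polr3e, Polr3f, Polr3g and Polr3k, as 250 bases before and 50 bases after the RefSeq start. The E-box letters CACGTG, which MYC can bind, occur in 7.15% of all promoters and in 2 of these 6, those of Polr3e and Polr3c. Both are printed with the E-box in capitals, the first past the RefSeq start on the plus strand (chr7:120917773-120917798) and the second before it on the minus strand (chr3:96727661-96727686).
Polr3e E-box: ccgctcccccCACGTGtccggcggag
Polr3c E-box: ccgcaagggtCACGTGagtccgcccg

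The other letters searched were AAGATGGC, alone and followed by GG, of the kind YY1 binds, CCGGAAGT of ETS factors and TATAAA. On either strand they occur in 2.75% (0.852% with the GG), 3.89% and 13.6% of all promoters, and E-box letters read the same on both strands. Of the 6 promoters, that of Polr3b holds CCGGAAGT and none holds AAGATGGC or TATAAA. A match describes these letters in this window and no binding was measured here.

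All 9 genes were tested. Polr3d, Polr3e, Polr3f and Polr3k were called lower after AG636, 4 of 9, and none was called higher. Of all genes tested 8.49% were called lower and 5.47% higher. The median log2 fold change of the 9 genes was -0.23, beside -0.01 over all genes tested. In the same 4 genes every AG636 sample lay below every vehicle sample, which held for 12.9% of all genes tested. None of the 9 had every AG636 sample above every vehicle sample, which held for 9.35%. Polr3a, Polr3b, Polr3c, Polr3g and Maf1 were not called. Fewer cells of a type and less RNA per cell cannot be told apart in these bulk samples.

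**Figure D1:**
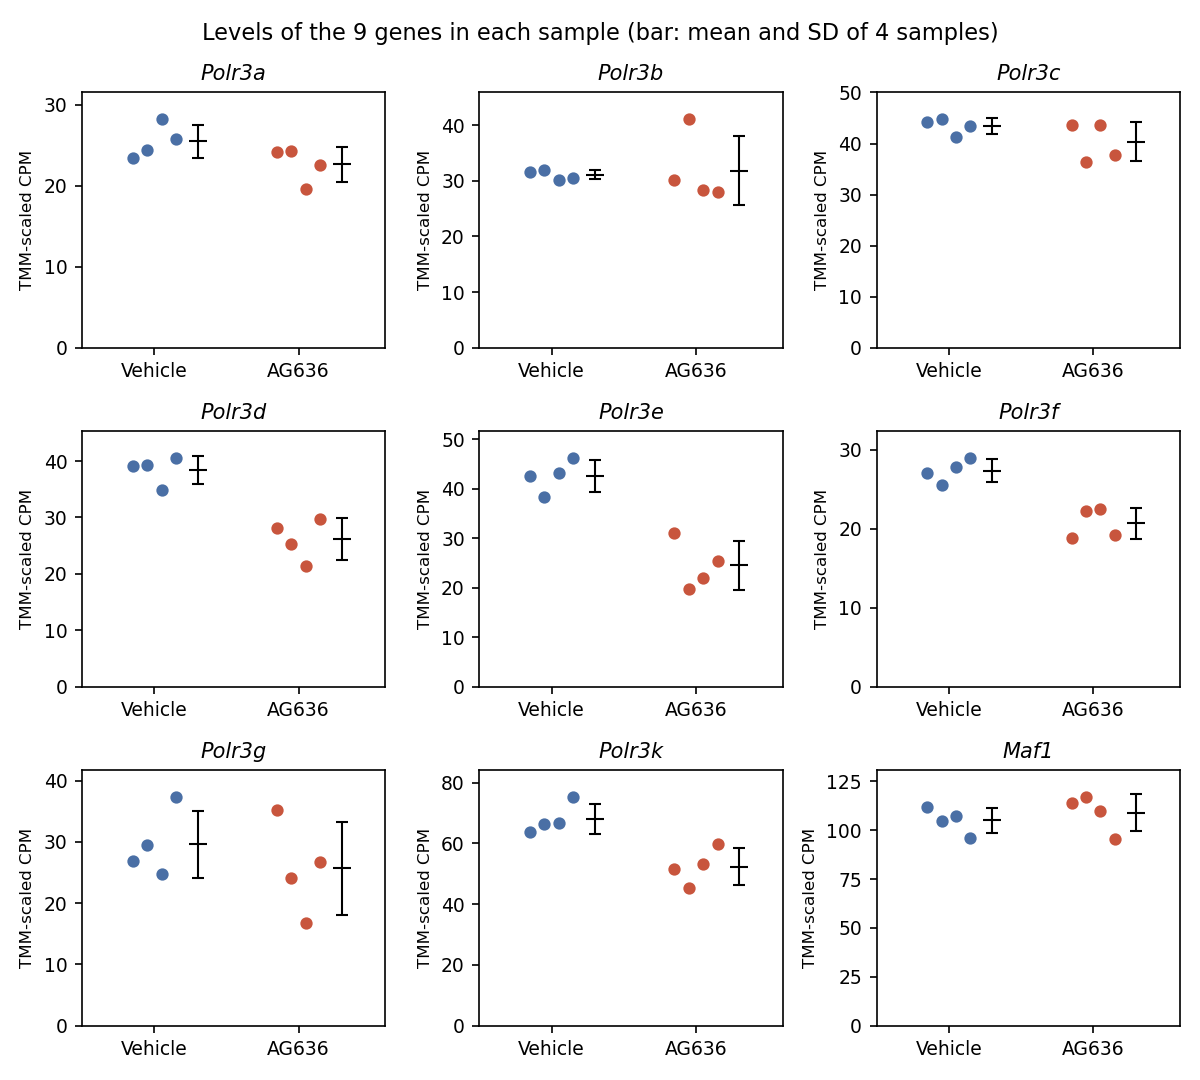
Level of each of the 9 genes (y axis, TMM-scaled CPM from 0) in the 4 vehicle samples (blue) and the 4 AG636 samples (red), left to right in replicate number, with the mean and SD of each group. In Polr3d, Polr3e, Polr3f and Polr3k the groups do not overlap, and in the other 5 genes they do.

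Polr3d and Polr3e form the TFIIF-related dimer, and both were called lower. Polr3e stood at 42.5, 38.3, 43.2 and 46.1 CPM in the vehicle samples and at 31.1, 19.6, 21.9 and 25.3 CPM in the AG636 samples. Sample 1 of AG636 was the least reduced and still lay below the lowest vehicle sample. Its log2 fold change was -0.81 (SE 0.14, 95% interval -1.12 to -0.50, adjusted p = 0.00554 by limma-voom), and its level fell by 43.0%. Polr3d stood at 39.2, 39.3, 34.8 and 40.5 CPM in vehicle and at 28.1, 25.2, 21.4 and 29.8 CPM in AG636. The groups did not overlap, with sample 3 the lowest of each group. Its log2 fold change was -0.56 (SE 0.12, 95% interval -0.83 to -0.29, adjusted p = 0.0136 by limma-voom). Both calls held at the 0.05 threshold in all 20 other fits, with adjusted p of at most 0.0233 for Polr3e and 0.0483 for Polr3d. At a threshold of 0.01 Polr3e alone of the 9 was called.

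Polr3c, Polr3f and Polr3g belong to the TFIIE-related trimer, which helps to open the promoter, and 1 of the 3 was called. Polr3f stood at 27.1, 25.5, 27.9 and 28.9 CPM in vehicle and at 18.8, 22.2, 22.5 and 19.2 CPM in AG636. The groups did not overlap, and samples 1 and 4 of AG636 were the lowest. Its log2 fold change was -0.41 (SE 0.11, 95% interval -0.65 to -0.16, adjusted p = 0.0367 by limma-voom). Polr3c stood at 44.3, 44.7, 41.3 and 43.4 CPM in vehicle and at 43.7, 36.4, 43.6 and 37.7 CPM in AG636. Samples 2 and 4 of AG636 lay below the vehicle samples and samples 1 and 3 among them. Its log2 fold change was -0.11 (95% interval -0.33 to 0.10, adjusted p = 0.481 by limma-voom). The last 600 bases of the longest Polr3c transcript share at least 75 bases at 95% identity or more with transcripts of 3 other genes, so its count is uncertain. The last 600 bases of the other 8 genes had no such match.

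Polr3k, the subunit for cleavage and termination, stood at 63.8, 66.5, 66.8 and 75.2 CPM in vehicle and at 51.5, 45.2, 53.1 and 59.7 CPM in AG636. The groups did not overlap, and sample 4 of AG636 lay nearest to the vehicle samples. Its log2 fold change was -0.38 (SE 0.10, 95% interval -0.61 to -0.15, adjusted p = 0.0350 by limma-voom). The calls of Polr3f and Polr3k were near the threshold. With library size alone as the scaling, the adjusted p was 0.0721 for Polr3f and 0.0964 for Polr3k, and with no filter on low counts it was 0.110 and 0.0730. With any 1 vehicle sample or AG636 sample 1 left out both calls were lost, so that 2 of the 9 genes remained called. The call of Polr3f was also lost without AG636 sample 4 and that of Polr3k without AG636 sample 2, which left 3. With the replicate number as a block the adjusted p of Polr3f was 0.0689.

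**Figure D2:**
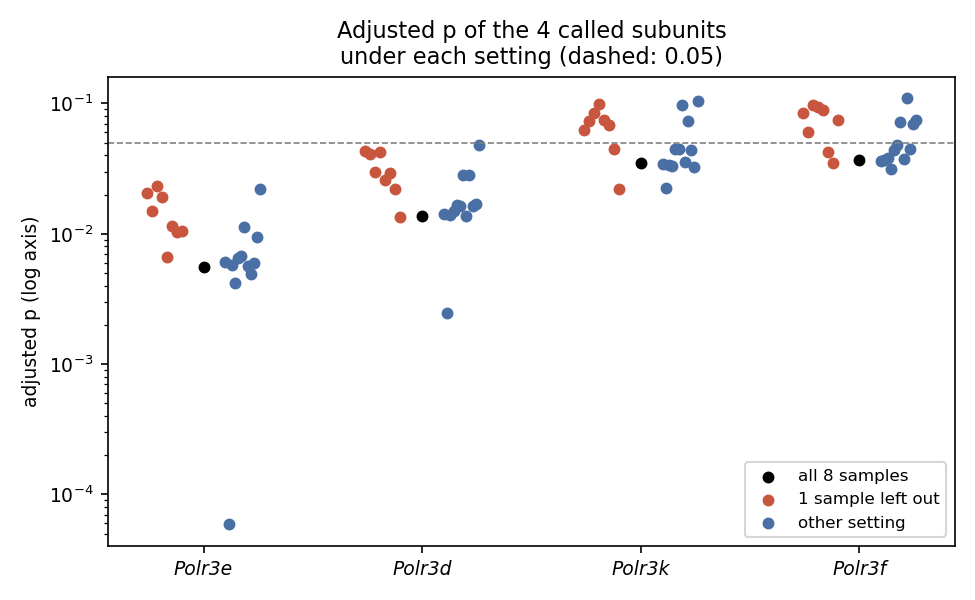
Adjusted p on a log axis for the 4 called subunits with all 8 samples (black), with 1 sample left out (red) and under the other settings tried (blue), with 0.05 dashed. Polr3e and Polr3d lie below the dashed line in every setting shown, and Polr3k and Polr3f cross it.

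Polr3a and Polr3b, which together form the active site, were not called. Polr3a stood at 23.5, 24.4, 28.2 and 25.7 CPM in vehicle and at 24.1, 24.3, 19.6 and 22.5 CPM in AG636, a log2 fold change of -0.17 (95% interval -0.43 to 0.09, adjusted p = 0.366 by limma-voom). Polr3b stood at 31.6, 32.0, 30.2 and 30.6 CPM in vehicle and at 30.2, 41.0, 28.2 and 27.9 CPM in AG636. Sample 2 of AG636 was the highest of all 8 and the other 3 lay at or below the lowest vehicle sample. The log2 fold change of Polr3b was 0.01 (95% interval -0.28 to 0.30, adjusted p = 0.960 by limma-voom), and it was -0.11 with AG636 sample 2 left out.

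Within each library the subunits can be set against each other without any scaling. The 8 subunits together held 1423 to 2153 counts in a library. Polr3e took 13.9% ± 0.791 (SD, n = 4) of them in vehicle and 9.97% ± 1.49 (SD, n = 4) in AG636, and the groups did not overlap. Polr3b took 10.2% ± 0.601 in vehicle and 13.1% ± 2.81 in AG636, and Polr3c 14.2% ± 0.790 and 16.6% ± 1.87, again without overlap. These shares add up to the same total, so that some must be higher where others are lower. The ratio of Polr3e to Polr3b counts lay between 1.20 and 1.51 in vehicle and between 0.479 and 1.03 in AG636. The ratio of Polr3e to its dimer partner Polr3d overlapped between the groups, from 0.973 to 1.24 in vehicle and from 0.778 to 1.10 in AG636. The ratios were chosen after the values were seen and carry no test.

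Maf1, the repressor of the enzyme, was not called. It stood at 112, 105, 107 and 96.3 CPM in vehicle and at 114, 117, 110 and 95.4 CPM in AG636. Sample 4 was the lowest of each group, and the groups overlapped. The log2 fold change was 0.05 (SE 0.09, 95% interval -0.15 to 0.25, adjusted p = 0.753 by limma-voom), and the RNA level says nothing of the phosphorylation of the protein. The 3 genes most like Maf1 over the 8 samples, of 8502 genes whose log2 CPM averaged 3 or more, were Slc25a30 (Pearson r = 0.964), 4930520O04Rik (r = 0.964) and Tagap1 (r = 0.936), none of them called. For Polr3e they were Pno1, a ribosome assembly factor (r = 0.988), Ndufc2, a subunit of respiratory complex I (r = 0.985), and Ciao2a, of the cytosolic iron-sulfur assembly pathway (r = 0.983), each of them called lower. With each group centred on its own mean these 3 values were 0.928, 0.927 and 0.928. The correlations describe the same 8 libraries and are the highest of many, so no p is given. A search over both groups for likeness to a called gene favours genes called in the same direction. The calls of the 3 genes most like Polr3e therefore add no support.

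Polr3g and Polr3gl encode alternative forms of 1 subunit of the trimer, and the enzyme carries either. Polr3g stood at 27.0, 29.5, 24.8 and 37.3 CPM in vehicle and at 35.1, 24.1, 16.8 and 26.7 CPM in AG636. The groups overlapped widely, and the log2 fold change was -0.23 (SE 0.21, 95% interval -0.69 to 0.22, adjusted p = 0.488 by limma-voom). Polr3gl stood at 50.7, 45.3, 49.98 and 35.8 CPM in vehicle and at 54.1, 51.1, 65.3 and 58.1 CPM in AG636, without overlap, and was not called at a log2 fold change of 0.34 (adjusted p = 0.104 by limma-voom). The last 600 bases of Polr3gl match transcripts of 21 other genes over 75 bases or more, so its count is uncertain.

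Polr3g made up 39.6% ± 8.10 (SD, n = 4) of the Polr3g and Polr3gl counts in vehicle and 30.8% ± 7.81 (SD, n = 4) in AG636. The difference of -8.73 percentage points was within the spread between samples (exact permutation test, two-sided, p = 0.143 over 70 relabellings, where the smallest possible p is 0.0286). Vehicle sample 4 was the highest at 51.0% (Wilson 95% interval 46.6 to 55.5) and AG636 sample 3 the lowest at 20.4% (17.2 to 24.1). With both left out, an alternative chosen after the values were seen, the difference was -1.44 percentage points (exact permutation p = 0.5, where the smallest possible is 0.1). The intervals cover counting error only.

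**Figure D3:**
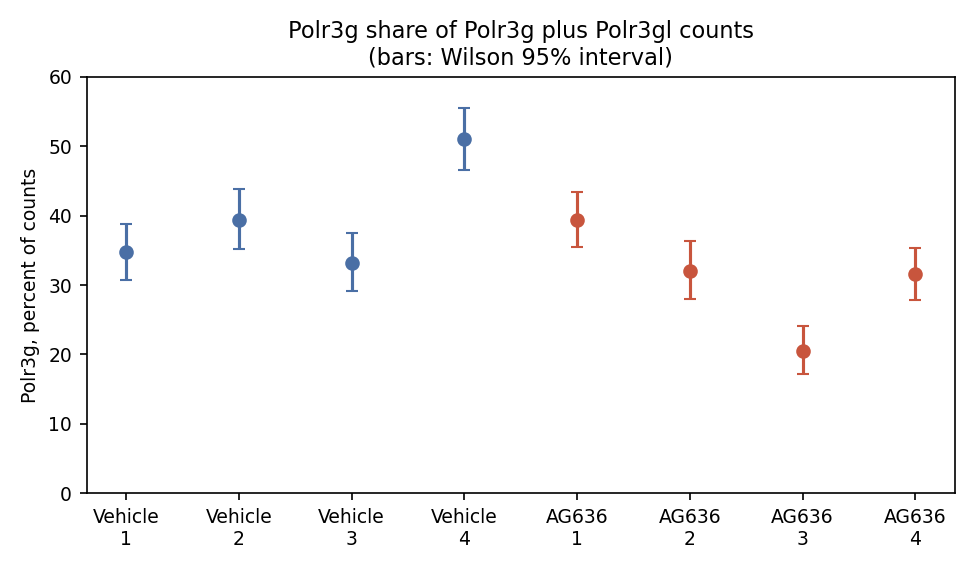
Percent of the Polr3g plus Polr3gl counts that were Polr3g (y axis) in each of the 4 vehicle samples (blue) and 4 AG636 samples (red), with Wilson 95% intervals. Vehicle sample 4 at 51.0% and AG636 sample 3 at 20.4% stand apart from the other 6, which lie between 31.5% and 39.4%.

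Crcp, a further subunit of the enzyme that forms part of its stalk, was not called (log2 fold change -0.44, adjusted p = 0.156 by limma-voom), and was called lower with AG636 sample 4 left out (adjusted p = 0.0421).

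**Figure D4:**
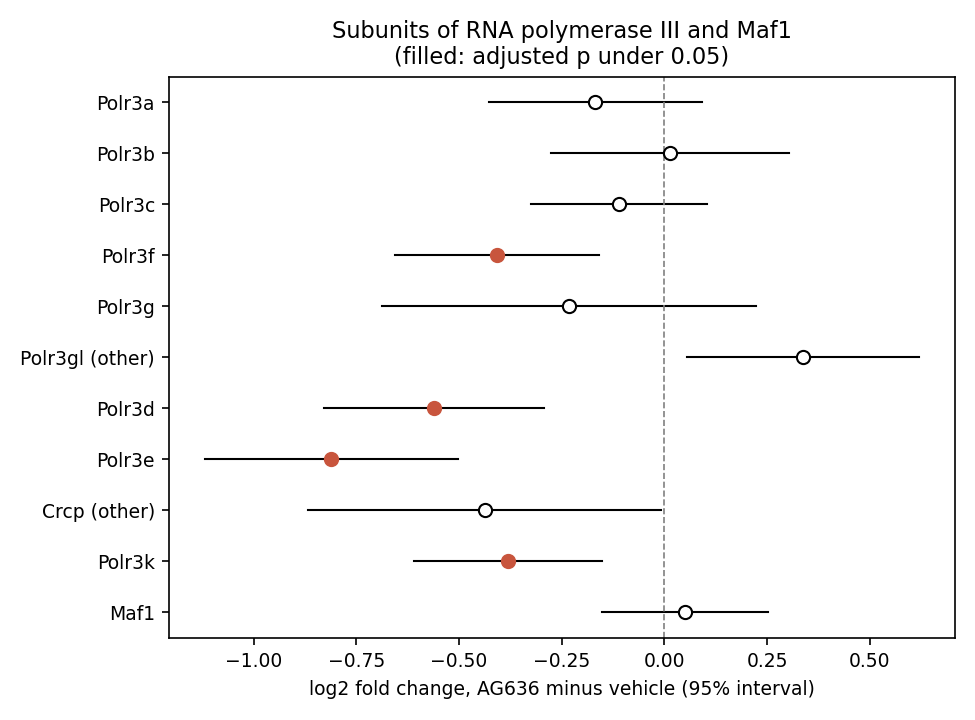
Log2 fold change, AG636 minus vehicle, with 95% intervals for the 9 genes and for Polr3gl and Crcp, filled where the adjusted p is under 0.05. Polr3d, Polr3e, Polr3f and Polr3k are filled, all at negative values.

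The subunits that RNA polymerase III shares with the other nuclear polymerases were lower in part, and the counts below stand beside 8.49% called lower over all genes tested. Of the 2 shared with RNA polymerase I, Polr1d was called lower at -0.49 on the log2 scale. Of the 5 common to all 3 polymerases, 4 were called lower, Polr2e at -0.50, Polr2f at -0.55, Polr2h at -0.76 and Polr2l at -0.93. The call of Polr2l held in 10 of the 20 other fits. It was lost, among others, with library size alone, by edgeR, with no filter and without any 1 vehicle sample or AG636 sample 1 or 2 (adjusted p up to 0.105). Among the 6 subunits of RNA polymerase I alone, Polr1a at -0.54, Polr1b at -0.76 and Cd3eap at -1.07 were called lower. Among the 8 of RNA polymerase II alone, Polr2d at -0.59 was called lower. The medians of these lists were -0.38, -0.55, -0.57 and -0.19, in that order.

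The initiation factors of RNA polymerase III recruit it to its genes, and 1 of 16 was called, a share near that of all genes tested. It was Snapc4 of the complex at U6-type promoters, lower at -0.45. Its call held in 8 of the 20 other fits. Among the losses were library size alone, upper-quartile scaling and any 1 sample but AG636 sample 3 left out. The adjusted p of Snapc4 ran up to 0.125 over the settings, and between 0 and 3 of the 16 were called. Brf2, which serves the same promoters and is named after its values were seen, had every AG636 sample above every vehicle sample, at 11.7, 12.4, 9.44 and 11.9 CPM in vehicle and 16.2, 20.6, 15.5 and 14.3 CPM in AG636. It missed the threshold at a log2 fold change of 0.54 (SE 0.16, limma-voom adjusted p = 0.0507, from 0.0233 to 0.152 over the other settings). In 9 of the 20 other fits Brf2 was called higher. The median log2 fold change of the 16 was -0.15. Of 4 proteins that bind transcripts of the enzyme, Ssb, the La protein that protects their ends, was called lower at -0.33. This call held in 15 of the 20 other fits. The losses included those without vehicle sample 2, 3 or 4 and with library size alone (adjusted p up to 0.0968 over the settings). Of 14 upstream regulators, Myc at -0.77 and Trp53 at -0.45 were called lower and Rb1 at 0.54 was called higher. The counts of this list and of the 4 proteins stand beside 8.49% called lower and 5.47% called higher over all genes tested. MYC activates RNA polymerase III, while RB1 and p53 repress it, and any such effect here was not tested. None of the mTORC1 genes of that list was called.

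**Figure D5:**
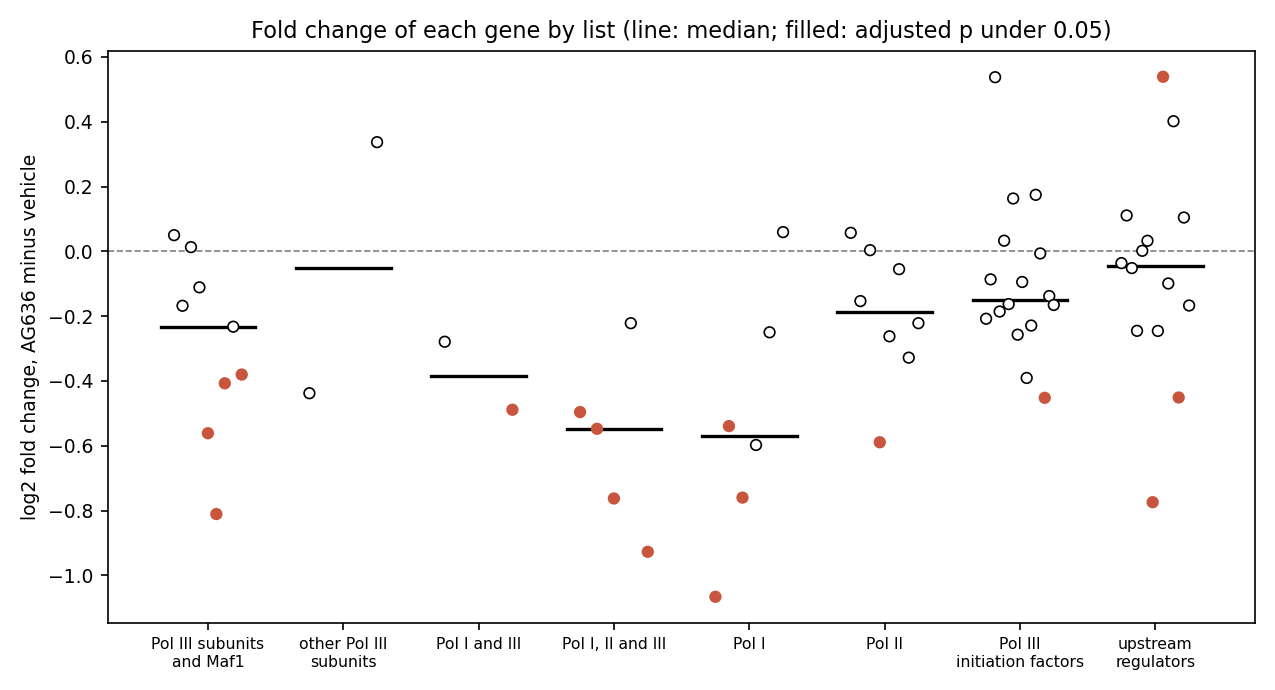
Log2 fold change, AG636 minus vehicle, of each tested gene in 8 lists of polymerase subunits, initiation factors and upstream regulators, with the median as a line and called genes filled. The median is -0.23 for the 9 genes, -0.57 for subunits of RNA polymerase I alone and -0.15 for the initiation factors.

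The products of the enzyme could hardly be read from these libraries, which were primed on poly(A) tails that most of its transcripts lack. Rn7sk had 3 to 10 counts per library and was not tested, and Rmrp and Rnu6 had none. The 180 genes of 5S RNA together had 1 to 21 counts per library. Rny1, Rny3 and Vaultrc5 were tested and not called, with Rny1 at 4 to 23 counts in vehicle and 15 to 29 counts in AG636 (adjusted p = 0.295 by limma-voom).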

How the data were processed

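The authors removed low-quality reads, trimmed adapters with cutadapt, aligned to mm10 with HISAT2 and counted reads per gene with featureCounts of Subread (versions 1.9.1, 2.0.4 and 1.5.0-p3 in the submitters' processing notes). Treatment of multi-mapping reads is not given in the sources used here. The deposited values are raw counts per gene. From them, genes were filtered with filterByExpr (minimum count 10) and fitted with voom in limma 3.58.1 with TMM factors of edgeR 4.0.16 and group as the only term, after the fit was tested on simulated data. The 4 vehicle and 4 AG636 samples were grouped by their labels. Alternatives were edgeR's quasi-likelihood test, DESeq2 1.42.0, other scalings, filters, thresholds, a replicate block and leaving out samples. Gene positions come from GENCODE release 21 (GRCm38), promoters from RefSeq, and 3′ end matches from blastn 2.17.0. The 9 genes and the lists were chosen with earlier results of these data known, and the motifs after the values were seen. All 9 genes, each called gene of a list and the 3 genes most like Maf1 and Polr3e were named. One further item of a list is not reported here.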

Additional observations from a re-analysis of the deposited data

How the results depend on the processing

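Of the 9 genes, 4 were called with all samples and 2 to 4 with 1 sample left out. The count was 2 with library size alone, 2 with no filter on low counts, 2 with vehicle sample 4 and AG636 sample 3 left out together (chosen after seeing the data) and 1 at an adjusted p under 0.01. Over all genes, 1523 were called, 435 at an adjusted p under 0.01 and 2440 under 0.1, and between 688 and 1706 with 1 sample left out, the lowest without vehicle sample 3, with 798, 918 and 1010 without vehicle samples 1, 2 and 4. Without AG636 samples 3 and 4 the calls were 1706 and 1655, more than with all samples. Fewer samples enter each of these fits, and the cause of the differences between them was not tested. The median of the 9 genes ran from -0.37 to -0.15 with 1 sample left out. The direction of Polr3b turned with sample quality weights (-0.014) and without vehicle sample 3 (-0.0045) or AG636 sample 2 (-0.11), with 0.088 the highest value with 1 sample left out, and that of Polr3g turned with vehicle sample 4 and AG636 sample 3 left out (0.089). The difference in Polr3g share ran from -11.6 to -4.91 percentage points with 1 sample left out and never passed the exact permutation test. Correlations of deviations ran from -0.14 to 0.20 between samples with the same number and from -0.33 to 0.25 between the others. They gave no sign of pairing by number, though 4 pairs cannot exclude it. With the replicate block 3 of the 9 genes, Polr3f no longer among them, and 1446 genes in all were called, and the Polr3g share differed by -8.73 percentage points (exact sign-flip p = 0.250, where 4 pairs allow no p under 0.125). The 9 genes held between 105 and 769 counts in a library, which limits the precision of their fold changes.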
